A study of Mus musculus with 123 samples.

Results

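Here 6 protein-coding genes with little-described roles in the liver were followed in liver RNA of mice on a high-fat (HFD) or low-fat (LFD) diet: Adgrf1, Srgap3 and Chrna4, which were lower on HFD, and Adgrv1, Aatk and Tmem28, which were higher. They are 6 of the 15398 genes in the deposited table, and all 6 had at least 1 CPM (counts per M reads, M standing for mega) in at least 3 libraries, the filter that left 14397 genes for testing. They were chosen by the size of the difference of their levels between the diets in these same libraries. Their diet difference is therefore given below as a description, without a test, and supports nothing. Photoperiod and time of day played no part in the choice, except that the diet difference had the same sign in every photoperiod. A choice by size of difference can favour genes that vary widely between libraries of the same group. In each of the 6 that spread was larger than in at least 91.2% of the genes tested.

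The mouse livers form 36 groups, one for each combination of diet (HFD, 61 libraries, or LFD, 62 libraries), photoperiod (Equal, Long or Short light) and zeitgeber time (ZT, the hour of the light cycle: 0, 4, 8, 12, 16 or 20 h). Each group holds 3 or 4 libraries, and each arm (1 diet in 1 photoperiod) holds 20 or 21. The control diet is LFD, and no genetic change or drug is named for any group. The sources used here give no strain, sex, age, diet composition, duration of feeding, hours of light or event that defines ZT0. The labels name no animals, so p-values measure only the spread between these samples, part of which may be technical. Values are log2 CPM, so that a difference of 1 is a doubling.

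In other tissues these genes have well-known jobs. Adgrf1 (also GPR110) and Adgrv1 (also VLGR1, an Usher syndrome protein of the stereocilia of the inner ear) are adhesion G protein-coupled receptors, cell-surface proteins with a long extracellular part that is cut from the membrane part and can act as a tethered ligand. Chrna4 encodes the alpha4 subunit of the neuronal nicotinic acetylcholine receptor, a ligand-gated cation channel that usually forms with the beta2 subunit, encoded by Chrnb2. Srgap3 encodes a Rac GTPase-activating protein of the Slit-Robo guidance pathway that bends membranes during neurite growth, Aatk (also Lmtk1) a membrane-bound lemur tail kinase tied to Cdk5 and Rab11 endosomes, and Tmem28 (also Fam155b or Nalf2) a relative of the auxiliary subunits of the sodium leak channel NALCN.

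For 3 of the genes a stretch upstream of the RefSeq transcription start is printed. They were picked because Srgap3 had the clearest daily rhythm of the 6 and Chrna4 varied with the lipogenic genes. Aatk was picked because it was called for a rhythm difference between photoperiods, a call that some alternatives lost. The sequences are RefSeq's on GRCm38.p6, read 5′ to 3′ on the gene's strand, with annotated untranslated bases left out. For Chrna4 these are the 128 bases next to the start, and the start itself lies 4369 bases downstream of the 5′ end of the gene in GENCODE, so that the stretch is inside the gene's span there. Capitals mark a TATAAA or GGGCGG match on either strand.

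Srgap3, chr6:112947267-112947516, minus strand, -250 to -1 from the start: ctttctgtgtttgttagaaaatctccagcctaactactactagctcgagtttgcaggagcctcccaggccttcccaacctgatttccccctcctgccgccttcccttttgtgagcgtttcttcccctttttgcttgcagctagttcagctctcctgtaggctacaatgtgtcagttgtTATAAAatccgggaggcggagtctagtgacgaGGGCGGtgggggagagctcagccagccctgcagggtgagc
Chrna4, chr2:181039306-181039427, minus strand, -250 to -129 from the start: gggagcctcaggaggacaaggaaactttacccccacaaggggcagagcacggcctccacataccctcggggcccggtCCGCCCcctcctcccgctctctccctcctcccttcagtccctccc
Aatk, chr11:120047153-120047402, minus strand, -250 to -1 from the start: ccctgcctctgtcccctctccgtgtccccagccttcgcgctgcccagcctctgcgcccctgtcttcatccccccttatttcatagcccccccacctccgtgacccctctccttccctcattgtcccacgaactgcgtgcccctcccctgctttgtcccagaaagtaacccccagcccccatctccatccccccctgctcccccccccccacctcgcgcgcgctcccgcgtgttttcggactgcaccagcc

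All 6 genes had a RefSeq promoter window. That of the most upstream RefSeq start, 250 bases before to 50 after it, was searched on both strands for 8 motifs. The ROR element and the DR1 named below share letters, so the same stretch can count for both. The clock-linked letters CACGTG (E-box), TTATGNAA (D-box) and TAGGTCA (ROR element), the nuclear-receptor repeat of 2 AGGTCA 1 base apart (DR1) and the sterol response letters TCACNCCAC were found in 0 of the 6 windows. Of 32817 windows of all genes, 7.15% hold the E-box, 3.38% the D-box, 2.61% the ROR element, 0.0396% the DR1 and 1.24% the sterol response letters. The GC box GGGCGG (35.6% of windows) occurred at 1 place in Adgrf1, Srgap3, Aatk and Tmem28 and at 3 places in Chrna4, of which the printed stretches show those that lie in them. TATAAA (13.6%) occurred in Srgap3 alone, 72 to 67 bases before the start, and CCAAT (37.4%) in Adgrv1 alone. These are letters in a window, and say nothing on which factors bind there.

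Sequencing depth, from the recovered reads, was 13.97 to 39.09 M (mega) reads per library, with medians of 23.6 M on HFD and 24.6 M on LFD. Of 10 hepatocyte markers, such as Alb and Apoa1, 9 have values here, and their summed level was 16.2 to 17.2 log2 CPM in every library. Markers of other tissues stood out in 20 libraries, in which the mean of the pancreas acinar or skeletal muscle list was above 4. Of 12 acinar markers, 11 were lower on HFD, against 12.6% of all genes tested. Their summed level ran from 4.19 through a median of 5.38 to 9.20 on HFD and from 3.71 through 5.31 to 11.98 on LFD. The medians were thus close, while the highest values were on LFD. In bulk RNA, fewer cells of a type and less RNA per cell cannot be told apart.

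In 3 libraries the 6 genes lay mostly nearer the mean of the other diet: 6 of 6 in HFD Equal ZT12 replicate 1, and 5 of 6 in HFD Long ZT16 replicate 2 and in LFD Short ZT0 replicate 3. In 4 libraries 4 of the genes did so, in 13 libraries 3, and in 49 libraries none. The labels were kept as given. Because these 3 libraries were found by the genes' own levels, leaving them out widens the diet difference by construction. The mean diet differences and rhythms of the 6 genes were also computed without them, as were their relations with each other and with the gene lists. The search for the genes most like each of the 6 was not.

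Across the 14397 genes tested, 25.5% differed between the diets at an adjusted p under 0.05 (limma, Benjamini-Hochberg over all genes), 12.9% higher and 12.6% lower on HFD. All 6 genes are among them, which the choice fixes, and 5 when replicate 1 of every group was left out, Chrna4 being the exception. By size of the diet difference, the 3 lower genes ranked 4 (Adgrf1), 5 (Chrna4) and 7 (Srgap3) of the 1313 genes lower on HFD that have a mean of at least 2 log2 CPM, pass the call and keep 1 sign in all photoperiods, and the 3 higher genes ranked 4 (Adgrv1), 5 (Aatk) and 6 (Tmem28) of 1382. Between an HFD group and the LFD group of the same photoperiod and time there are 18 matched pairs, and 2.19% of all genes tested had 1 sign in all 18. Per gene and pair, the libraries of the 2 diets did not overlap in 8.62% of cases.

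Adgrf1 (ENSMUSG00000041293, chr17:43270329-43324737, plus strand, GRCm38, 16 annotated exons) was the most reduced of the 6. In Equal light it ran from 1.69 through a median of 4.28 to 5.84 log2 CPM on LFD and from -0.11 through 2.57 to 5.65 on HFD. In Long light the lowest, median and highest were 1.13, 4.43 and 5.41 on LFD and 0.08, 2.59 and 5.24 on HFD. In Short light they were -0.04, 4.30 and 5.79 on LFD and 0.13, 2.12 and 4.65 on HFD. The ranges of the diets overlapped in each photoperiod, and the medians were lower on HFD in all 3. The mean difference was -1.70 on the log2 scale (SE 0.21), 3.25-fold lower on HFD. Its sign was negative in 18 of 18 matched pairs, with no overlap in 6, and the pair differences ran from -2.94 (Equal, ZT20) to -0.91 (Short, ZT0). The lowest library held 22 reads on LFD and 15 on HFD.

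Srgap3 (ENSMUSG00000030257, chr6:112717971-112947266, minus strand, 31 exons) was lower on HFD in every photoperiod, by -0.99 log2 units (SE 0.21) in Equal, -1.28 (SE 0.21) in Long and -1.27 (SE 0.21) in Short light. In Equal light its lowest, median and highest levels were 0.45, 2.77 and 4.22 log2 CPM on LFD and 0.57, 1.48 and 3.52 on HFD. In Long light they were 1.02, 2.87 and 4.40 on LFD and 0.09, 1.49 and 3.15 on HFD. In Short light they were 1.28, 3.01 and 3.70 on LFD and -0.39, 1.64 and 3.07 on HFD. The overlap of the diets was wide in Equal light, where all 20 HFD libraries lay inside the LFD range, and narrower in the other photoperiods, where 12 did. The mean difference was -1.18 (SE 0.12), 2.26-fold lower on HFD, negative in 18 of 18 pairs, with no overlap in 9. One of its exons overlaps an exon of Gm44081, a noncoding RNA on the opposite strand, and no source used here says whether counting used strand, so reads of the 2 genes may not be told apart there.

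Chrna4 (ENSMUSG00000027577, chr2:181018380-181043546, minus strand, 16 exons) was the most variable of the 6 between libraries of the same group. In Equal light its lowest, median and highest levels were 1.32, 5.70 and 8.54 log2 CPM on LFD and 0.07, 3.90 and 7.03 on HFD. In Long light they were -0.22, 5.39 and 8.95 on LFD and -0.42, 3.98 and 8.40 on HFD. In Short light they were 2.16, 5.64 and 8.62 on LFD and -1.33, 4.22 and 7.22 on HFD. The diets overlapped almost wholly: 19 of 20 HFD libraries in Equal light, 19 of 20 in Long and 17 of 21 in Short light lay inside the LFD range. The mean difference was -1.40 (SE 0.34), 2.63-fold lower on HFD, and was -1.03 when replicate 1 of every group was left out. It was negative in 16 of 18 pairs and without overlap in 2. The SD between libraries of the same group, 1.86, was larger than that of 99.6% of the genes tested, and that of Adgrf1, 1.14, larger than 98.5%. The choice by size of difference can favour such spread.

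Adgrv1 (ENSMUSG00000069170, chr13:81095068-81633154, minus strand) was the most raised of the 6. In Equal light its lowest, median and highest levels were 0.72, 1.83 and 3.36 log2 CPM on LFD and 1.40, 3.41 and 4.75 on HFD. In Long light they were 0.76, 1.72 and 2.996 on LFD and 1.06, 3.49 and 4.63 on HFD. In Short light they were 1.16, 1.62 and 4.49 on LFD and 1.85, 3.07 and 4.47 on HFD. The top LFD value of Short light, 4.49, is the ZT0 library named above that lies with HFD. The mean difference was 1.36 (SE 0.12), 2.57-fold higher on HFD, positive in 17 of 18 pairs and without overlap in 10. The exception was Equal light at ZT12 (-0.07), a pair that holds the HFD library in which all 6 genes lay nearer LFD.

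Aatk (ENSMUSG00000025375, chr11:120007313-120047167, minus strand, 29 exons) was higher on HFD by nearly the same amount in each photoperiod, 1.19, 1.20 and 1.20 log2 units in Equal, Long and Short light. In Equal light its lowest, median and highest levels were 0.84, 2.34 and 3.22 log2 CPM on LFD and 1.61, 3.57 and 4.74 on HFD. In Long light they were 1.27, 2.35 and 3.45 on LFD and 2.28, 3.55 and 4.85 on HFD. In Short light they were 1.48, 2.34 and 4.76 on LFD and 2.48, 3.72 and 4.63 on HFD. In the Equal and Long arms the upper part of the HFD libraries lay above every LFD library, and 6 and 9 of 20 were inside the LFD range. In Short light all 21 were inside it, with 1 LFD library at 4.76. The mean difference was 1.20 (SE 0.11), 2.29-fold, positive in 18 of 18 pairs and without overlap in 12. The microRNA genes Mir338 and Mir3065 lie within Aatk but overlap no exon of it.

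Tmem28 (ENSMUSG00000071719, chrX:99821021-99848790, plus strand, 3 exons) had the least spread on HFD, with an SD of 0.43 over 61 libraries against 0.73 over 62 on LFD. In Equal light its lowest, median and highest levels were -1.53, 1.52 and 2.76 log2 CPM on LFD and 0.76, 2.37 and 3.27 on HFD. In Long light they were 0.39, 1.71 and 2.33 on LFD and 2.15, 2.70 and 3.18 on HFD. In Short light they were 0.05, 1.53 and 3.14 on LFD and 1.76, 2.68 and 3.39 on HFD. Inside the LFD range lay 14 of 20 HFD libraries in Equal, 2 of 20 in Long and 19 of 21 in Short light. The mean difference was 1.13 (SE 0.11), 2.19-fold higher on HFD, positive in 18 of 18 pairs and without overlap in 10. The lowest value, -1.53 in LFD Equal ZT0 replicate 3, rests on 7 reads in 1 of the 2 libraries that lay farthest from their groups over all genes.

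**Figure D1:**
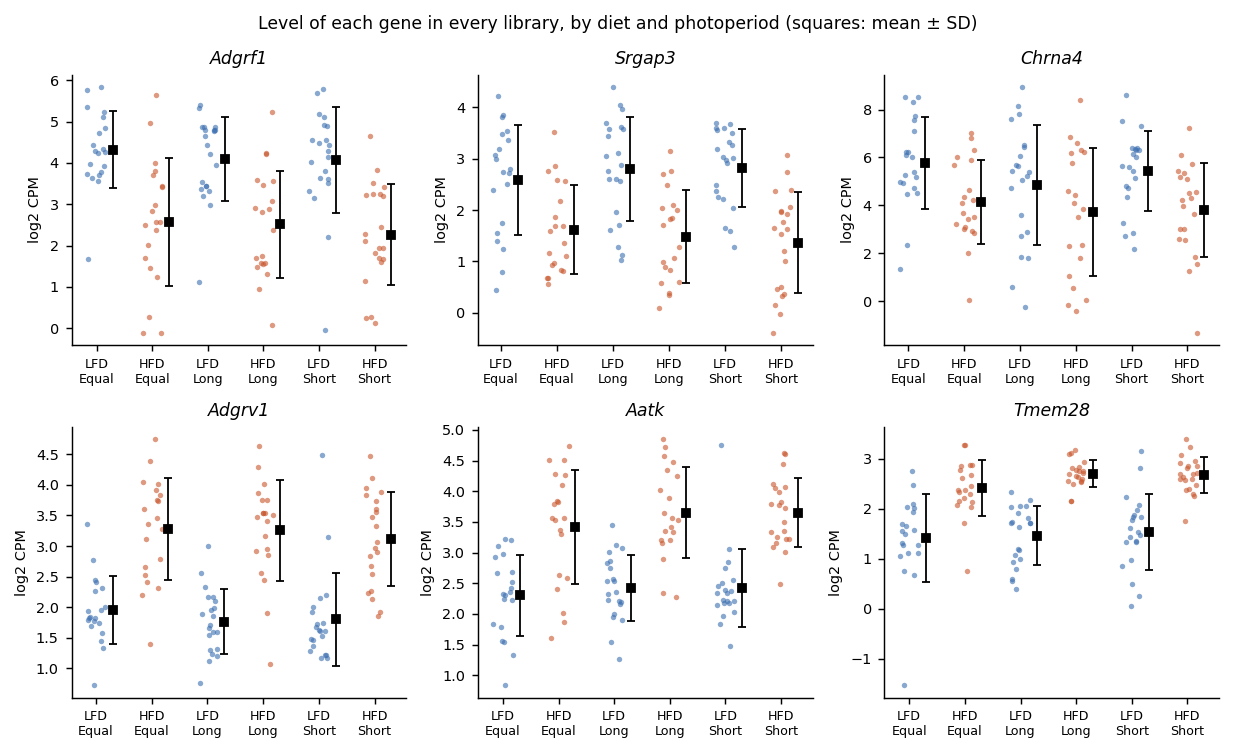
Level of each gene (log2 CPM, vertical axis) in every library of the 6 arms of diet and photoperiod, with squares and bars for the mean ± SD of 20 or 21 libraries. Adgrf1, Srgap3 and Chrna4 sit lower and Adgrv1, Aatk and Tmem28 higher on HFD in each photoperiod, with overlap between the diets in every panel.

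Without the 20 libraries rich in pancreas or muscle markers, the diet differences were -1.70 for Adgrf1, -1.31 for Srgap3, -1.75 for Chrna4, 1.42 for Adgrv1, 1.27 for Aatk and 1.07 for Tmem28, close to or past those over all libraries. Without the 3 libraries nearer the other diet they were -1.89, -1.27, -1.53, 1.49, 1.33 and 1.21 in the same order. Within groups, no member correlated with the acinar list (r from -0.10 to 0.18) or the muscle list (r from -0.17 to 0.16) at an adjusted p under 0.05 (permutation test). Over all genes tested, 12.9% were higher and 12.6% lower on HFD. Of other marker lists, 4 of 10 stellate cell and 2 of 6 adipocyte genes were higher and 0 lower. Of 6 blood genes 1 was higher and 3 lower. Of 10 macrophage and Kupffer cell genes 6 were higher and 0 lower on HFD, and of 14 pericentral hepatocyte genes 9 were higher and 1 lower. Their summed levels overlapped widely between the diets, at 8.30 to 9.74 on HFD and 8.12 to 9.68 on LFD for macrophages and 12.7 to 13.9 and 11.6 to 13.9 for pericentral hepatocytes. Their part in the diet difference was not tested. Of 13 neuronal markers 4 have values here, with a summed level of 2.29 to 4.81 on HFD and 2.22 to 4.72 on LFD, and 0 of the 2 tested differed between diets.

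Compared per length of exon, the order of the genes differed between diets. Choosing some genes lower and some higher on HFD makes such a change likely, so it is only a description. On LFD the median was 9.21 CPM per kb for Chrna4, 5.11 for Adgrf1, 0.784 for Srgap3, 0.757 for Tmem28, 0.710 for Aatk and 0.135 for Adgrv1. On HFD it was 3.43 for Chrna4, 1.66 for Aatk, 1.597 for Tmem28, 1.42 for Adgrf1, 0.425 for Adgrv1 and 0.305 for Srgap3. The neighbours Srgap3, Tmem28 and Aatk on LFD, and Aatk, Tmem28 and Adgrf1 on HFD, lay within each other's ranges. Chrna4 ranged from 0.0791 to 67.5 CPM per kb on HFD and from 0.170 to 98.3 on LFD, so that its place at the top holds for the median and not for each library.

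Photoperiod did not detectably shift the level of any of the 6 genes. In an F test over the 3 photoperiods with both diets weighted equally, 0 of 6 passed (limma, adjusted p from 0.654 for Chrna4 to 0.981 for Srgap3), as by limma-voom. Over all genes 4 passed, 0.0278%, and 1958 had an unadjusted p under 0.05, a count that includes none of the 6. For Srgap3 the difference between Long and Equal light was 0.05 with a 95% interval of -0.25 to 0.35, and between Short and Equal light 0.03 (-0.27 to 0.32). For Aatk the same differences were 0.18 (-0.09 to 0.45) and 0.17 (-0.10 to 0.44), and for Tmem28 0.17 (-0.09 to 0.44) and 0.18 (-0.08 to 0.45). A doubling with photoperiod lies outside these intervals. For Adgrv1 they were -0.11 (-0.41 to 0.19) and -0.15 (-0.45 to 0.15), and for Adgrf1 -0.16 (-0.67 to 0.36) and -0.27 (-0.77 to 0.24). For Chrna4 the interval was too wide to say so: Long minus Equal was -0.67, from -1.49 to 0.16.

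Neither did the diet difference itself differ detectably by photoperiod or time. The interaction of diet and photoperiod passed for 0 of 6 genes and 0.0% of all genes (limma, 483 genes at an unadjusted p under 0.05), and the choice of the 6, which asked for 1 sign in all photoperiods, leans that way. Under limma-voom and the other alternatives the count of the 6 also stayed at 0 for this test and the next. Chrna4 had the widest range, with -1.68 (SE 0.59) in Equal, -0.88 (SE 0.59) in Long and -1.63 (SE 0.58) in Short light. The interaction of diet and zeitgeber time passed for 0 of 6 and 0.0% of all genes (limma, 340 at an unadjusted p under 0.05). Averaged over photoperiods, the difference of Adgrv1 was smallest at ZT12, 0.78 (95% interval 0.17 to 1.38), and largest at ZT20, 1.79 (1.19 to 2.39). Tmem28 ran from 0.68 (0.14 to 1.21) at ZT12 to 1.54 (1.02 to 2.06) at ZT4, and Chrna4 from -0.66 (-2.33 to 1.0) at ZT20 to -2.62 (-4.24 to -0.99) at ZT16. In each of these genes the intervals of the smallest and the largest time, picked by size, overlap. Such overlap is no test of a difference between the times. Without the 3 libraries nearer the other diet the ZT12 values were 0.95 for Adgrv1 and 0.86 for Tmem28, each still the smallest of the 6 times, and that of Chrna4 at ZT16 was -3.08.

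**Figure D2:**
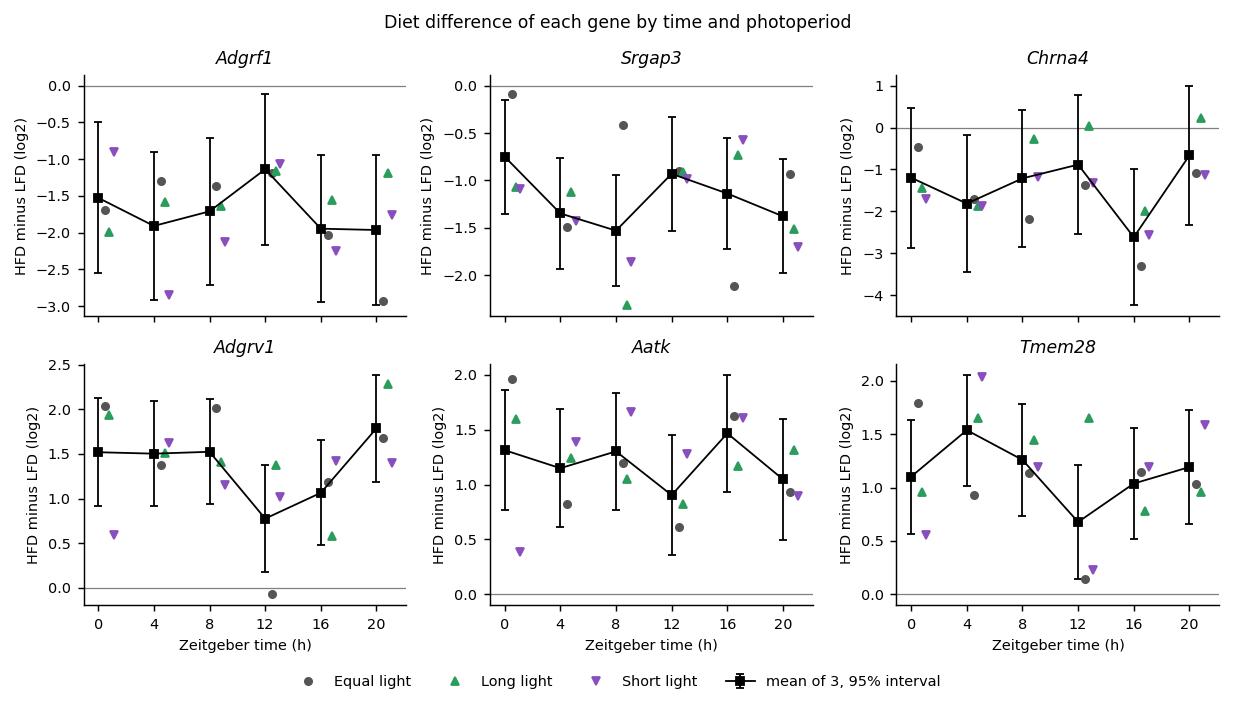
HFD minus LFD difference (log2, vertical axis) of each gene against zeitgeber time (h), with black squares and bars for the mean over 3 photoperiods and its 95% interval, and coloured symbols for the single photoperiods. The sign is kept at all 6 times in the mean, and crosses 0 in single pairs of Chrna4 and Adgrv1.

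Of the 6 genes, Srgap3 had a daily rhythm in both diets and every photoperiod. A 24 h cosine was fitted in each arm, and the joint test of the 6 arms passed for 4 of 6 genes, against 52.7% of all genes (limma): Srgap3 (adjusted p = 6.12e-10), Aatk (0.00573), Chrna4 (0.0122) and Adgrf1 (0.0269). It did not pass for Adgrv1 (0.0620) or Tmem28 (0.490). A share of 4 in 6 is near that background. Leaving out 1 replicate number of every group ended the call of Aatk without replicate 3 (0.465), of Chrna4 without replicate 1 (0.0938) or 3 (0.664) and of Adgrf1 without replicate 3 (0.0937) or 4 (0.162). That of Srgap3 stayed at or under 4.74e-06, and Adgrv1 passed without replicate 1 (0.0460). Without the 3 libraries nearer the other diet Adgrv1 passed too (0.0247).

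Arm by arm, Srgap3 passed in all 6. Of all genes, 20.9%, 23.6% and 27.1% passed on LFD in Equal, Long and Short light, and 16.5%, 21.8% and 14.1% on HFD. Its amplitude, the height of the fitted wave above its mean, was 0.94 (SE 0.23) on LFD and 0.87 (SE 0.22) on HFD in Equal light, 0.92 (0.22) and 0.84 (0.22) in Long light, and 0.73 (0.22) and 1.08 (0.22) in Short light. From trough to peak that is a 2.75-fold to 4.45-fold change. With 1 replicate of every group left out, 2 to 6 of the 6 arms still passed, and 5 did without the libraries rich in pancreas or muscle.

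The libraries themselves show the wave and its shift. On LFD in Short light Srgap3 was 3.04, 3.32, 3.50 and 3.56 log2 CPM at ZT12 and 1.59, 1.64 and 2.49 at ZT4. On LFD in Long light the order was the other way, with 1.02, 1.71 and 1.97 at ZT12 and 2.87, 3.44, 4.04 and 4.40 at ZT4. On HFD in Short light it was 1.98, 2.39 and 2.74 at ZT12 and -0.01, 0.46, 0.50 and 1.0 at ZT4, and in Long light 0.09, 0.82 and 1.06 at ZT12 and 1.83, 2.71 and 3.15 at ZT4. In each of these 4 arms the libraries of the ZT4 and ZT12 groups did not overlap, and ZT12 was the higher of the pair in Short light and the lower in Long light, on both diets. In Equal light they overlapped, with 1.39, 1.75, 2.52 and 3.19 at ZT12 and 2.39, 2.72 and 3.08 at ZT4 on LFD, and 0.84, 0.93 and 2.18 at ZT12 and 0.57, 0.81, 1.69 and 1.87 at ZT4 on HFD. These 2 times were picked after the values were seen. Per gene and arm, ZT4 and ZT12 did not overlap in 18.9% of cases over all genes tested, and 2.41% of genes were apart in all 4 of the Long and Short arms with opposite order in the 2 photoperiods.

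The fitted peak of Srgap3 fell at ZT 19.5 (SE 0.88 h) on LFD and 21.3 (0.97) on HFD in Equal light, at 1.92 (0.89) and 0.174 (1.01) in Long light and at 16.3 (1.12) and 16.5 (0.76) in Short light. The rhythm differed between photoperiods for 2 of the 6 genes, Srgap3 (limma, adjusted p = 1.14e-08) and Aatk (0.0102), against 49.1% of all genes. Since no source used here defines ZT0, a shift in hours of ZT depends on where the cycle was set to start. Adgrv1 just missed the threshold (0.0504). It passed with a prior of 0.5 reads (0.0499), with 1 CPM asked for in 60 libraries (0.0478), with median centring (0.0417), with library weights (0.0142) and without the 3 libraries nearer the other diet (0.00927). For Srgap3 the call held in all alternatives, with adjusted p from 1.05e-13 to 6.60e-05. The rhythm differed between the diets for 0 of the 6 genes and 0.00695% of all genes (limma; 400 genes at an unadjusted p under 0.05), so that for Srgap3 the level was lower on HFD while no difference in its wave was detected.

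**Figure D3:**
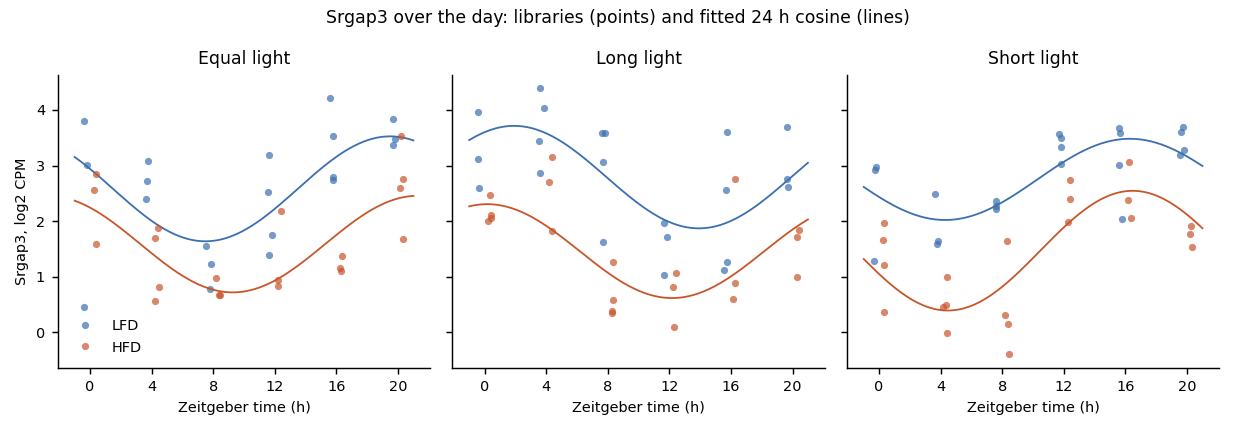
Srgap3 level (log2 CPM, vertical axis) against zeitgeber time (h) in each photoperiod, with a point for each library and a line for the fitted 24 h cosine of each diet. The HFD curve runs below the LFD curve in each panel, and both peak near ZT20 in Equal, between ZT0 and ZT4 in Long and near ZT16 in Short light.

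Aatk, Adgrf1 and Chrna4 were rhythmic less evenly. Aatk passed in 1 arm, HFD Long (adjusted p = 0.0203, limma), with an amplitude of 0.68 (SE 0.19) and a peak at ZT 21.3: its libraries there were 3.65, 4.25, 4.48 and 4.71 log2 CPM at ZT0 and 2.34, 2.89, 3.53 and 3.57 at ZT8. The photoperiod difference in the rhythm of Aatk was lost without the libraries rich in pancreas or muscle (0.0614) and without replicate 2 (0.0823) or 3 (0.124) of every group. Adgrf1 passed in 1 arm, HFD Equal (0.0275), with an amplitude of 1.24 (SE 0.36) and a peak at ZT 8.17. Its libraries there were 2.99, 3.42, 3.80 and 4.97 at ZT4 and -0.11, 0.27, 2.57 and 2.84 at ZT20. Chrna4 passed in 0 arms. Its fitted amplitudes, from 0.90 (SE 0.59) to 1.77 (SE 0.60), were the largest of the 6 genes in every arm but HFD Short, where that of Srgap3 was larger, and its fitted peaks fell between ZT 5.92 and 10.5 in all 6 arms. Tmem28 and Adgrv1 passed in none.

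Within the groups of the same diet, light and time, many pairs of the genes still varied together from library to library. Correlations are of deviations from the 36 group means over all libraries, which hold no difference between the labelled diets by construction. In the 3 libraries nearer the other diet, however, the deviations follow the diet difference, which pushes pairs toward its sign. The relations were tested by permuting libraries within groups (100000 permutations, smallest possible p = 1e-05). They were adjusted over the 45 relations computed, of which 22 passed. Among the 15 pairs of the 6 genes 11 passed, all with the sign of their diet differences, and 11 of the 30 relations with the means of 5 gene lists. The weakest of these 11 pairs had a size of r of 0.31, which 20.6% of all pairs among 11612 genes reach or exceed. With 1 replicate number left out at a time, 3 of the 11 pairs passed in every case (Adgrf1 with Srgap3, Chrna4 with Aatk and Adgrv1 with Aatk) and 8 were lost in at least 1. The highest of the member pairs was Adgrv1 with Aatk, Pearson's r = 0.61 (permutation, adjusted p = 7.5e-05) and Spearman's rho = 0.51 (permutation, adjusted p = 0.000129). Its r was 0.45 without the 3 libraries nearer the other diet. It was 0.56 without the 2 libraries whose Aatk deviations lay farthest from the median. For each relation below, the 2 farthest libraries are likewise those of the gene or list named second. This is another choice than the 2 libraries farthest from their groups over all genes.

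Pairs lower on HFD together were positively related: Adgrf1 and Srgap3 had r = 0.48 (permutation, adjusted p = 7.5e-05; rho = 0.49, 9e-05) and Srgap3 and Chrna4 r = 0.42 (0.000506; rho = 0.44, 0.000129). Aatk and Tmem28, both higher on HFD, had r = 0.48 (0.000675; rho = 0.33, 0.00489). Pairs of opposite diet direction were negatively related, from r = -0.53 for Adgrf1 with Adgrv1 (0.000506; rho = -0.42, 0.0009) to r = -0.31 for Adgrf1 with Tmem28 (0.0155; rho = -0.41, 0.000315), among those that passed. After leaving out the 2 farthest libraries these 5 values were 0.51, 0.43, 0.41, -0.47 and -0.45. Srgap3 with Chrna4 was lost without replicate 2 (r = 0.37, permutation, adjusted p = 0.0957), Aatk with Tmem28 without replicate 3 (0.38, 0.0503), Adgrf1 with Adgrv1 without replicate 3 (-0.42, 0.0558) and Adgrf1 with Tmem28 without replicate 1 (-0.26, 0.307) or 2 (-0.28, 0.189). The 4 pairs that did not pass were Adgrf1 with Chrna4 (r = 0.23, 0.0765), Adgrv1 with Tmem28 (0.19, 0.0844), Chrna4 with Tmem28 (0.20, 0.105) and Srgap3 with Tmem28 (-0.07, 0.851). Without the 3 libraries nearer the other diet, the relations of Adgrf1 with Tmem28 (r = -0.18, 0.163) and Srgap3 with Aatk (-0.15, 0.457) no longer passed, and Chrna4 with Tmem28 did (0.28, 0.024), a positive relation between a gene lower and a gene higher on HFD. Srgap3 with Tmem28 passed without the libraries rich in pancreas or muscle (-0.36, 0.00924) and without the 2 libraries farthest from their groups (-0.35, 0.00281).

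The firmest relation was between Chrna4 and the lipogenic genes, 14 genes of fatty acid synthesis and its regulators such as Fasn, Acaca, Scd1 and Srebf1. Chrna4 and their mean had r = 0.88 (permutation, adjusted p = 7.5e-05; rho = 0.85, adjusted p = 9e-05), 0.87 without the 2 farthest libraries, 0.89 within HFD and 0.88 within LFD. Over all alternatives r stayed between 0.83 and 0.90. Of these 14 genes, 11 were lower and 0 higher on HFD, against 12.6% and 12.9% of all genes tested. Their median difference was -0.69, against -0.0038 over all genes tested. By diet, the median of their summed level was 14.5 on HFD and 15.2 on LFD, with ranges of 11.4 to 16.2 and 12.8 to 16.8. The deviations of Chrna4 from its group means ran from -4.64 to 4.09, and those of Adgrf1 from -2.97 to 2.63.

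Adgrf1 ran against the PPARα targets, 14 genes such as Cyp4a14, Cpt2 and Vnn1, with r = -0.59 (permutation, adjusted p = 7.5e-05) and rho = -0.60 (permutation, adjusted p = 9e-05). The r was -0.58 without the 2 farthest libraries, -0.67 within HFD and -0.51 within LFD. Of these targets 12 were higher and 0 lower on HFD, against 12.9% and 12.6% of all genes tested. Adgrf1 showed no detectable relation with the lipogenic genes (r = 0.06, 0.701). Aatk varied with the pericentral hepatocyte genes, such as Glul, Oat and Lect2, which mark cells around the central vein (r = 0.50, 7.5e-05; rho = 0.50, 9e-05; 0.44 without the 2 farthest). Srgap3 had weaker relations, positive with the lipogenic genes (0.35, 0.00784; rho = 0.32, 0.00489; 0.38 without the 2 farthest) and negative with the PPARα targets (-0.35, 0.00125; rho = -0.37, 0.0009; -0.34 without the 2 farthest). The first was lost without the libraries rich in pancreas or muscle (0.30, 0.0583) and without replicate 2 (0.17, 0.653) or 3 (0.41, 0.0503), and the second without replicate 1 (-0.32, 0.0722) or 3 (-0.30, 0.0737).

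These lists were not particular to 1 gene each. Aatk was also related to the PPARα targets (r = 0.35, permutation, adjusted p = 0.000938; rho = 0.41, 0.000315) and the lipogenic genes (-0.31, 0.0155; rho = -0.39, 0.0009), and Adgrv1 to the PPARα targets (0.34, 0.00773; rho = 0.29, 0.0168). Chrna4 was related to the PPARα targets (-0.33, 0.00773; rho = -0.30, 0.0119) and the pericentral genes (-0.30, 0.0210; rho = -0.24, 0.0541), and Tmem28 to the pericentral genes (0.29, 0.0365; rho = 0.25, 0.0351). After leaving out the 2 farthest libraries these 6 values were 0.36, -0.28, 0.34, -0.31, -0.32 and 0.20. Within HFD they were 0.43, -0.39, 0.56, -0.51, -0.15 and 0.52. Within LFD they were 0.26, -0.22, 0.05, -0.15, -0.44 and 0.22, so that Adgrv1 showed nearly no relation with the PPARα targets there. With 1 replicate number left out at a time, 3 of the 11 list relations passed in every case, those of Chrna4 with the lipogenic genes, Adgrf1 with the PPARα targets and Aatk with the pericentral genes.

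**Figure D4:**
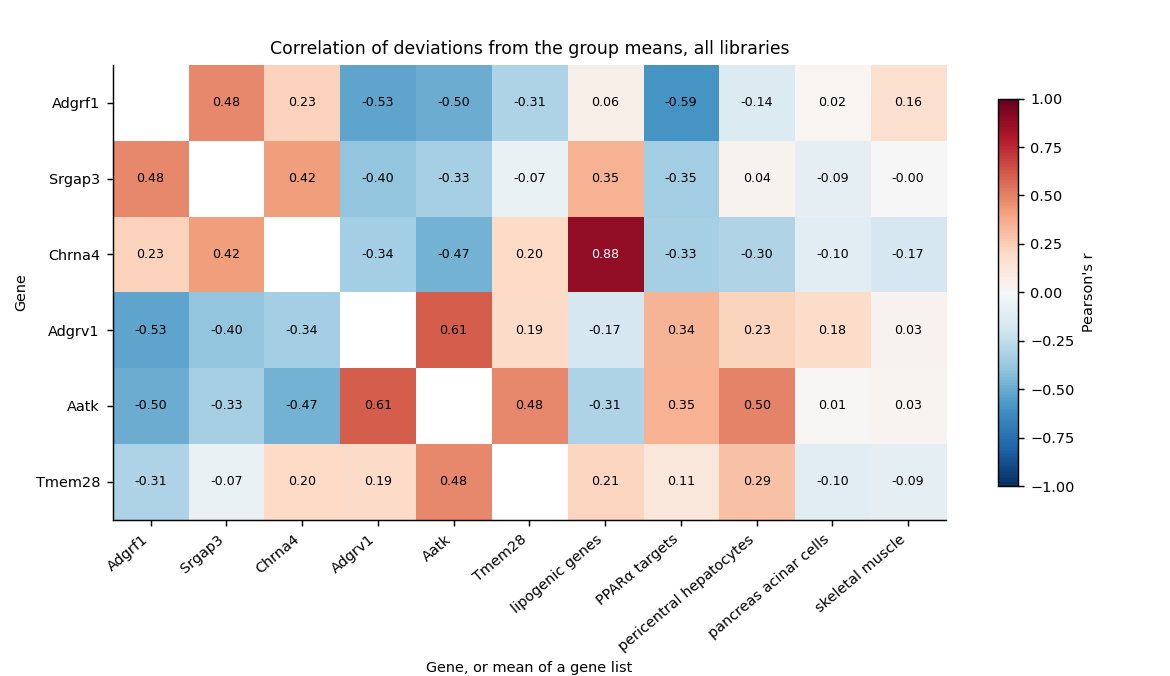
Pearson's r between the deviations of each gene (rows) and those of the other genes or of the mean of 5 gene lists (columns) from the group means, over all libraries, on a colour scale from -1 (blue) to 1 (red). Chrna4 with the lipogenic genes (0.88) is the strongest cell, and the acinar and muscle columns are pale.

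**Figure D5:**
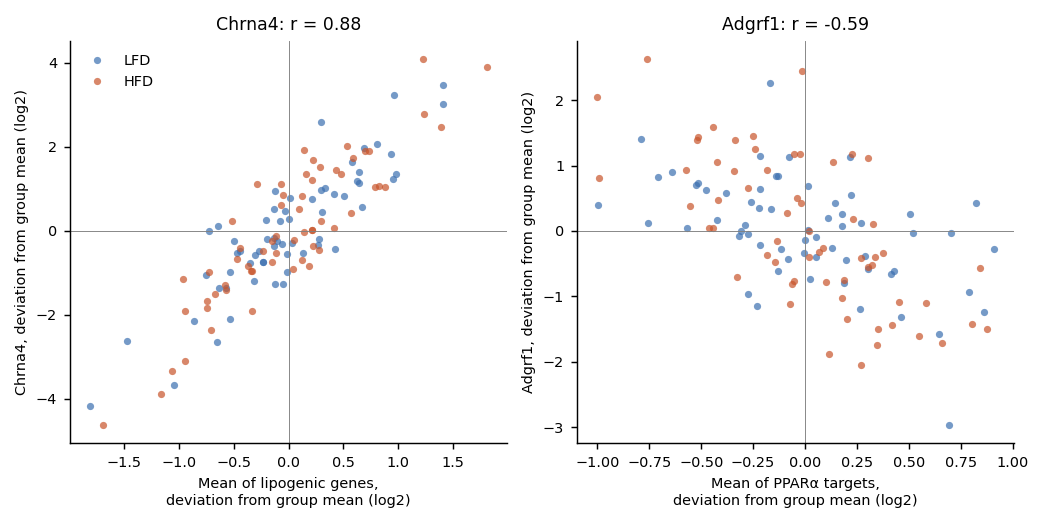
Deviations from the group mean (log2) of Chrna4 against those of the mean of 14 lipogenic genes, and of Adgrf1 against those of 14 PPARα targets, with a point for each library coloured by diet. Chrna4 rises with the lipogenic genes (r = 0.88) and Adgrf1 falls with the PPARα targets (r = -0.59), on both diets.

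The genes whose deviations were most like those of each member were found among 11606 candidates, with r and rho over all 61 HFD and 62 LFD libraries given as a description. These values include the 3 libraries nearer the other diet, whose deviations follow the diet difference, and were not computed without them. For Chrna4 they were Dhcr7, the last enzyme of a branch of cholesterol synthesis (r = 0.94, rho = 0.93), Acss2, which makes acetyl-CoA from acetate and is itself in the lipogenic list (0.94, 0.94), and Pnpla5, a patatin-like lipase (0.93, 0.90). For Adgrf1 they were Ugt2b38, a glucuronosyltransferase (0.81, 0.79), and Cmtm6, a membrane protein that stabilises PD-L1 (0.71, 0.70). For Aatk they were Hsd17b10, a mitochondrial dehydrogenase (0.75, 0.66), Nr1i3, the nuclear receptor CAR (0.74, 0.69), and Smpd2, a neutral sphingomyelinase (0.71, 0.64). Likeness was thus closest for Chrna4. The r was also computed without the 2 libraries in which the member's own deviations lay farthest from their median. It was then 0.922 to 0.937 for the genes like Chrna4, 0.799 and 0.676 for Ugt2b38 and Cmtm6 and 0.673 to 0.719 for those like Aatk.

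For Adgrv1 the most like genes were Cyp2b9, a cytochrome P450 (r = 0.67, rho = 0.58), Gstk1, a glutathione transferase (0.64, 0.59), and Gpc1, a glypican (0.64, 0.59). For Srgap3 they were Avpr1a, the V1a vasopressin receptor (0.66, 0.57), Tspyl4 (0.61, 0.59) and Srms, a Src-related kinase (0.61, 0.53). For Tmem28 they were Mup-ps16, a pseudogene of the major urinary proteins (0.66, 0.54), Rasgrp2, an exchange factor for small GTPases (0.65, 0.64), and Plbd1, a phospholipase B-like protein (0.65, 0.50). Mup-ps16 belongs to a family with near-identical copies, among which counting could split reads, so its own level is uncertain. Its r with Tmem28 was 0.80 within LFD and 0.24 within HFD. The next counts are over 11612 genes, the members among them, and each includes the gene itself. With Adgrv1, 7 had a higher r than Aatk had. With Srgap3, 53 had a higher r than Adgrf1 had, and with Chrna4, 1825 had a higher r than Adgrf1 had.

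Relatives of the 6 genes mostly had smaller diet differences. The choice of the 6 by size makes that likely for almost any other gene, so it says nothing about families. Of 16 other adhesion receptors tested, 5 were higher and 0 lower on HFD, against 12.9% and 12.6% of all genes, with a median difference of 0.06. The changes were small: Adgra3 rose by 0.16 (SE 0.03; limma adjusted p = 7.97e-05), Adgre1, the macrophage marker F4/80, by 0.28 (SE 0.07; 0.00283), Adgrl4 by 0.12 (SE 0.03; 0.00438) and Adgrg2 by 0.38 (SE 0.13; 0.0221). None came near the 1.36 of Adgrv1 or the -1.70 of Adgrf1, which were chosen for their size. The rhythm differed between photoperiods in 5 of the 16, against 49.1% of all genes: Adgra3, Adgrg2, Adgrl2, Celsr1 and Adgrg3.

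Of the Usher proteins 3 besides Adgrv1 were tested, and 1 was higher and 2 lower on HFD, against 12.9% and 12.6% of all genes. Whrn, the whirlin scaffold that binds Adgrv1 in the ear, fell by 0.39 (SE 0.07; limma adjusted p = 6.47e-06) and Myo7a, a myosin motor, by 0.10 (SE 0.03; 0.0229), while Cib2, a calcium-binding protein, rose by 0.13 (SE 0.05; 0.0299). In rhythm 2 of the 3 differed between photoperiods (Whrn and Myo7a), against 49.1% of all genes. Whrn thus moved against Adgrv1 between the diets, from 0.55 to 0.12 log2 CPM on average.

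Of 10 Slit-Robo genes besides Srgap3, 1 rose and 0 fell on HFD, against 12.9% and 12.6% of all genes. The gene that rose was Wasf1, an actin regulator, by 0.19 (SE 0.07, limma adjusted p = 0.0237). The paralogs Srgap1 and Srgap2 differed by 0.01 (SE 0.06) and 0.00 (SE 0.03), and the receptors Robo4 and Robo1 by 0.08 (SE 0.04) and -0.14 (SE 0.08), none past the threshold. In rhythm 3 of the 10 differed between photoperiods (Srgap1, Wasf1 and Cdc42), against 49.1% of all genes. Of 5 nicotinic receptor subunits and chaperones besides Chrna4, 0 were called for diet, against 25.5% of all genes. Chrna2 differed by 0.24 (SE 0.10, limma adjusted p = 0.0550), and 0 of the other 4 had an unadjusted p under 0.05. Chrnb2, the usual partner of Chrna4, was at 1.85 log2 CPM on HFD and 1.88 on LFD, a difference of -0.01 (SE 0.05), and it was the 1 of the 5 whose rhythm differed between photoperiods (49.1% of all genes).

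Of 5 lemur kinase, Cdk5 and Rab11 genes besides Aatk, 0 were called for diet by limma, against 25.5% of all genes. At an unadjusted p under 0.05 there were also 0. Lmtk2, the paralog of Aatk, was at 4.72 on both diets (difference 0.01, SE 0.03), Rab11a differed by -0.04 (SE 0.03), Cdk5r1 by -0.10 (SE 0.09) and Rab11b by 0.02 (SE 0.02). In rhythm 2 of the 5 differed between photoperiods (Lmtk2 and Cdk5r1), against 49.1% of all genes. No gene of the NALCN channel complex besides Tmem28 passed the filter on low values.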

How the data were processed

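Liver poly-A RNA was sequenced as stranded TruSeq libraries from 61 HFD and 62 LFD livers, per the labels' protocols. The submitters' processing notes name STAR, Subread 1.6.2, featureCounts and the build mm10 (GRCm38). No source used here states options, annotation, strand setting or normalization. As deposited by the authors, the single table holds log2 CPM of 15398 genes. Its floor, -3.61 (0.0818 CPM), equals a prior of 2 reads scaled to each library, and from it 99.4% to 99.7% of a library's values came out as whole reads within 0.05 read. The prior understates differences of low genes. Positions are from GENCODE M21 (GRCm38).

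Groups came from the titles, and replicate numbers only name samples. The 14397 genes that reached 1 CPM in 3 or more libraries were fitted with limma 3.58.1 (R 4.3.3) on the deposited log2 values with a variance trend, with 1 mean per group for levels and a 24 h cosine per arm for rhythms, and p-values adjusted over all genes by Benjamini-Hochberg at 0.05. All tests are two-sided. Scripts used Python 3.11.15, numpy 2.4.6, scipy 1.17.1 and pandas 2.3.3, and were tested on simulated data.

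The 6 genes and all gene lists were chosen with earlier results of these data known. Besides the 6, the text names the 3 most like genes of each (1 is not reported here) and, from each list of relatives, up to 4 tested genes with the smallest p for diet and any called for a rhythm difference; genes that illustrate the other lists were picked as familiar examples. Alternatives were limma-voom on the recovered reads, priors of 0.5 and 5 reads, no filter or 1 CPM in 60 libraries, median centring, robust variances, library weights, the library number as covariate, 24 h and 12 h cosines, and leaving out each replicate number, libraries rich in pancreas or muscle, and, added after seeing the data, the 2 libraries farthest from their groups and the 3 nearer the other diet.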

Additional observations from a re-analysis of the deposited data

Results flagged for a closer look

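In groups of 4 libraries, a single library stood apart from the others of its group in 3 of 90 combinations of gene and group (Dixon's test, critical value 0.829), where chance flags about 5%. Adgrf1 was 5.76 log2 CPM in LFD Equal ZT16 replicate 1, with the other libraries at 3.78 to 3.96. Adgrv1 was 2.01 in LFD Short ZT12 replicate 4, with the others at 1.16 to 1.28. Aatk was 1.48 in LFD Short ZT12 replicate 3, with the others at 2.34 to 2.37. The daily rhythm of Srgap3 differed between photoperiods (limma, adjusted p = 1.14e-08), and so did that of Aatk (0.0102), as in 49.1% of all genes. The call of Aatk was lost by limma without the libraries rich in pancreas or muscle (0.0614) and without replicate 2 (0.0823) or 3 (0.124).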

How the results depend on the processing

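No paired analysis was possible because the replicate numbers, given in accession order, pair no samples, so no replicate block was fitted. Over all genes tested, the count called for diet, 3676, was 5698 with library weights and 2282 to 3269 with 1 replicate number left out. The photoperiod count, 4, was 72 with library weights and 0 without the libraries rich in pancreas or muscle. It was 0 without the 2 libraries farthest from their groups and 0 to 14 with 1 replicate number left out. The count for diet by time, 0, was 1 with library weights. The count for a rhythm difference between the diets, 1, was 0 without the libraries rich in pancreas or muscle and 0 to 1 with a replicate number left out. Of the 45 relations within groups, 22 were called, and 11 to 19 with a replicate number left out. No called result turned its direction, while 10 of the relations that were not called changed sign in at least 1 alternative, among them Srgap3 with Tmem28 (r = -0.07, and 0.06 without the 3 libraries nearer the other diet) and Adgrf1 with the lipogenic genes (0.06, and -0.07 without replicate 2). Of the 6 genes, the rhythm of Chrna4 was lost with limma-voom (adjusted p = 0.0700) and that of Adgrv1 was gained with library weights (0.00767); the causes were not tested. A replicate number left out removes 36 or 15 libraries, which by construction lowers power. Library weights also called a rhythm difference between photoperiods of Adgrf1 (0.0345) and Adgrv1 (0.0142). Depth limits the lowest values, down to 7 reads for Chrna4 and Tmem28.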
